A study of Mus musculus with 18 samples.

Results

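The 10 miRNAs described here are a named list: mmu-miR-574-5p, mmu-miR-328-3p, mmu-miR-671-5p, mmu-miR-1198-5p, mmu-miR-674-5p, mmu-miR-423-3p, mmu-miR-423-5p, mmu-miR-185-3p, mmu-miR-505-3p and mmu-miR-1981-5p (the species prefix mmu is left out below), 10 of the 758 mature mouse miRNAs with a deposited level and 10 of the 351 that passed the filter on low values. They were chosen by their fold changes with calorie restriction in these same libraries, in LF+CR against LF or in the average over both diets, so their levels under calorie restriction are given as a description. The list has no threshold of its own. Small RNA was sequenced from liver of inbred C57BL/6J mice (wild type), whose regimens ran from 5 weeks of age to sampling at 62 weeks. The 18 libraries form 6 groups of 3, HF+CR, HF+Ex, HF, LF+CR, LF+Ex and LF. The labels do not spell these names out; they are read here as high-fat (HF) or low-fat (LF) diet, with calorie restriction (CR), exercise (Ex) or neither. All groups share strain, genotype, tissue and age, and the labels give neither sex nor whether each library had its own animal. The p-values therefore reflect the spread between libraries alone, which may be technical.

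A miRNA is cut from a hairpin precursor. The 5p or 3p arm that is loaded into an Argonaute protein pairs with messenger RNAs mainly through its seed (bases 2 to 8), and the other arm is mostly lost. Many hairpins lie in clusters that are transcribed together, whereas others lie alone, often inside an intron of a protein-coding gene. In whole liver most miRNA comes from hepatocytes, and endothelial, stellate, blood and Kupffer cells add their own.

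The mature sequences are shown because they define the members and because their base composition is compared with that of the other miRNAs further on. They are RefSeq entries on GRCm38.p6 for the 9 of 10 members that the sequence table holds, written 5′ to 3′ with the seed in capitals.
miR-574-5p: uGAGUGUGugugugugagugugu
miR-671-5p: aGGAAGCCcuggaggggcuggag
miR-1198-5p: uAUGUGUUccuggcuggcuugg
miR-674-5p: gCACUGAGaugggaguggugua
miR-423-3p: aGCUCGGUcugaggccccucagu
miR-423-5p: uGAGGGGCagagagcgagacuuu
miR-185-3p: aGGGGCUGgcuuuccucuggu
miR-505-3p: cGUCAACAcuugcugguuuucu
miR-1981-5p: gUAAAGGCugggcuuagacguggc

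No 2 of these 9 share a seed, so they form no seed family. The only seed shared with another miRNA of the table was that of miR-674-5p, which miR-3473d also has. The longest identical run with any of the other listed miRNAs that have a sequence (606 of 758) was 12 bases, between miR-574-5p and miR-3082-5p, and it was 7 to 10 bases for the other 8. Guanine made up a median of 41.7% of the bases in the 9 members (18.2% in miR-505-3p to 52.2% in miR-671-5p), against 22.7% over the 288 tested miRNAs that have a sequence. In 7 of the 9 the share lay above the upper quartile of those 288, 30.4%.

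The 10 members come from 9 hairpins on chromosomes 1, 2, 5, 8, 11, 16 and X. GENCODE M21 (GRCm38) places Mir574 in an intron of Fam114a1, Mir1198 in one of Gripap1, Mir423 in one of the splicing regulator gene Nsrp1, Mir185 in one of Tango2 and Mir1981 in one of Marc2, each on the same strand. Mir671 overlaps an exon of Chpf2, a chondroitin synthesis gene, on the same strand and of Smarcd3 on the other. Mir328 overlaps an exon of Elmo3 on the opposite strand, and Mir674 lies in no annotated gene. The nearest other annotated miRNA gene was at least 322569 bases away for 7 hairpins, 33971 bases for Mir185 and 464 bases for Mir328 (Gm27320), so the description as lone hairpins holds by distance for all but Mir328 and, less far apart, Mir185.

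The hairpins that carry the miR-423 arms, the only pair of members from a single precursor, and miR-574-5p, the member with the largest difference under calorie restriction on LF, are shown with both mature arms in capitals. Mir423 lies at chr11:77078064-77078172 on the minus strand and Mir574 at chr5:64970318-64970395 on the plus strand (GRCm38.p6).
Mir423: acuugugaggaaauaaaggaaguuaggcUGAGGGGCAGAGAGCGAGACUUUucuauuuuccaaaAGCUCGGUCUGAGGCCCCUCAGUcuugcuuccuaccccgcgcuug
Mir574: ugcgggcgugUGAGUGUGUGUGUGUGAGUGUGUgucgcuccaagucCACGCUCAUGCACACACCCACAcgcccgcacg

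The unit of level is RPM, a read number scaled to its library. The libraries held 2.38 M (HF+Ex 1) to 10.5 M (LF+Ex 2) reads (M, megareads) on listed miRNAs, and miR-122-5p, the main hepatocyte miRNA, took 25.5% of listed RPM on average. None of the hepatocyte, endothelial, stellate or leukocyte markers was at 0 in any library. Pancreatic markers (4 of 4 listed) stood apart in LF+CR 1 at 348 RPM and in HF+CR 1 at 138 RPM, where the other 16 libraries had at most 41.2 RPM. Biliary epithelial markers (5 of 5 listed) stood apart in HF+CR 3 at 7989 RPM and in LF 1 at 5663 RPM, where the others had 980 to 3770 RPM. Neuronal markers were highest in HF+CR 2, at 366 RPM. Entries that resemble fragments of other RNAs (5 of 5 listed) reached 397 RPM in HF+Ex 1 and 307 RPM in HF+CR 1.

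The members were of middling to low abundance, with means over the 18 libraries between 7.68 RPM for miR-185-3p and 212 RPM for miR-423-5p. Together they summed to 469 ± 98.5 RPM in LF+CR, against 886 ± 97.3 RPM in LF (SD, n = 3). The sum was 873 ± 183 RPM in HF+CR, against 1033 ± 102 RPM in HF. With exercise it was 1071 ± 200 RPM in HF+Ex and 763 ± 19.8 RPM in LF+Ex. The HF+Ex libraries had 1302, 955 and 957 RPM, the highest in HF+Ex 1, the library with the fewest reads. All 10 members had their lowest group mean in LF+CR. The highest was in HF+Ex for 6, in HF for miR-423-3p, miR-423-5p and miR-185-3p, and in HF+CR for miR-671-5p. In bulk liver, fewer cells of a type and less of the RNA per cell cannot be told apart.

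**Figure D1:**
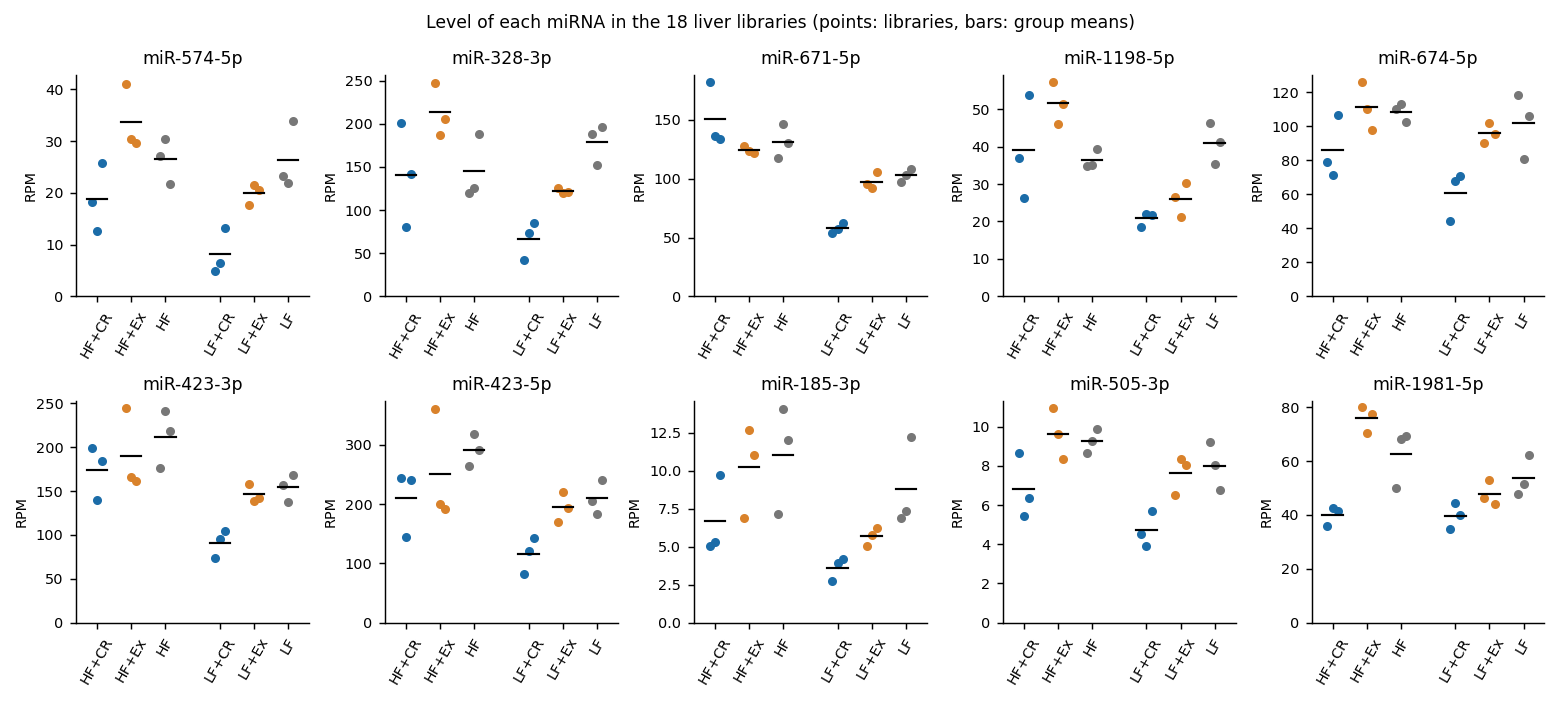
RPM of each of the 10 miRNAs (y axis, from 0) in every library (points) of the 6 groups (x axis), with the group mean as a bar. The 3 LF+CR libraries lie below the 3 LF libraries in all 10 panels, whereas HF+CR and HF overlap in all but the miR-423-5p and miR-1981-5p panels.

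The first question was which members were lower with calorie restriction on both diets and which on LF alone. On LF all 10 lay lower without overlap, while 24.8% of the 351 tested miRNAs did so. On HF 2 of 10 did, miR-423-5p and miR-1981-5p, against 9.4% of all tested. Another 5 had a lower mean in HF+CR with overlapping libraries, miR-328-3p hardly differed, and miR-671-5p and miR-1198-5p were slightly higher. The signs of miR-328-3p and miR-1198-5p on HF turned with single libraries, to 0.25 for miR-328-3p without HF+CR 2 (it was also positive without HF 3) and to -0.22 for miR-1198-5p without HF+CR 3. The members' median log2 fold change (of RPM + 1) was -0.38 in HF+CR against HF, where the median of all tested was -0.05, and -0.86 in LF+CR against LF, where it was -0.32. A miRNA counts as called at an adjusted p under 0.05 in limma (Benjamini-Hochberg over 351 miRNAs). By that measure 0 of 10 members were lower in HF+CR against HF (0% of all tested), 6 of 10 in LF+CR against LF (5.7%) and 8 of 10 in the average over both diets (6.27%). These contrasts chose the members, so nothing is read from the counts. At an unadjusted p under 0.05, 1 member was lower in HF+CR against HF, beside 53 of the 351 tested in either direction. With voom weights limma also called 0 members there. Without HF+CR 3, 22 of the 351 miRNAs were called on HF, 15 lower and 7 higher, none of them a member. The count on LF was 2 without LF+CR 1 and 3 without LF+CR 2, LF 1 or LF 3. The count for the average was between 0 and 3 without any 1 of 12 libraries.

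**Figure D2:**
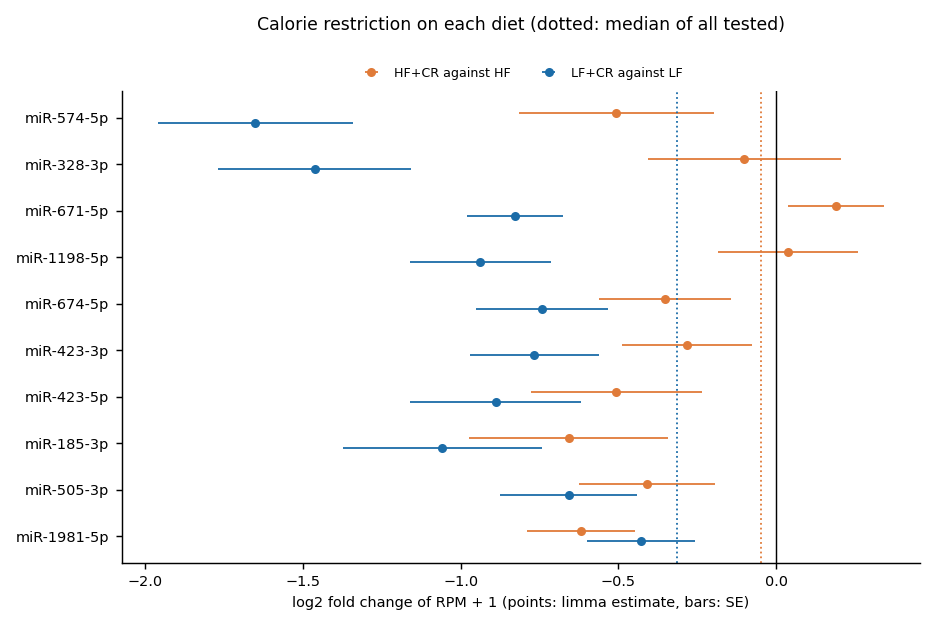
Log2 fold change of RPM + 1 with calorie restriction for each of the 10 miRNAs (points, bars are SE from limma), in HF+CR against HF and in LF+CR against LF. Dotted lines mark the median of all 351 tested miRNAs, -0.05 on HF and -0.32 on LF; the LF points all lie left of 0 and of their dotted line, and the HF points run between -0.66 and 0.19.

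Both arms of miR-423, a widely expressed miRNA, were lower on both diets by group mean. miR-423-5p had 243, 144 and 241 RPM in HF+CR, against 264, 318 and 291 RPM in HF. LF+CR livers had 81.8, 121 and 143 RPM, against 206, 184 and 240 RPM in LF. The groups did not overlap on either diet, and the log2 fold changes were -0.51 on HF and -0.89 on LF (SE 0.27 each). For miR-423-3p the levels were 199, 140 and 184 RPM in HF+CR, against 176, 242 and 218 RPM in HF. On LF they were 73.1, 95.6 and 104 RPM in LF+CR, against 157, 138 and 168 RPM in LF. The HF groups overlapped and the LF groups did not, with log2 fold changes of -0.28 and -0.77 (SE 0.20 each).

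miR-1981-5p, from an intron of Marc2, was the member with the smallest difference on LF and one of the larger ones on HF. It had 35.9, 42.7 and 41.4 RPM in HF+CR, against 49.98, 68.3 and 69.2 RPM in HF. In LF+CR it had 34.6, 44.3 and 39.9 RPM, against 47.7, 51.3 and 62.1 RPM in LF. All 3 restricted libraries were below all 3 of their controls on each diet. The log2 fold change was -0.62 on HF and -0.43 on LF (SE 0.17 each), so its mean in restricted livers was 64.0% of that in HF and 73.7% of that in LF.

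miR-185-3p is the minor arm of a hairpin whose 5p arm is known to repress cholesterol uptake and synthesis genes in liver cells. It had 5.04, 5.29 and 9.69 RPM in HF+CR, against 7.14, 14.04 and 12.02 RPM in HF. On LF it had 2.77, 3.94 and 4.18 RPM in LF+CR, against 6.87, 7.37 and 12.2 RPM in LF. HF+CR 3 reached into the HF range, and the LF groups stayed apart. The log2 fold changes were -0.66 on HF and -1.06 on LF (SE 0.32 each). These levels rest on few reads, 17 in the lowest library and 112 in the highest.

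miR-505-3p, known to target the splicing factor gene Srsf1, was similarly scarce, with 19 to 90 reads per library. It had 8.69, 5.46 and 6.35 RPM in HF+CR, against 8.66, 9.28 and 9.87 RPM in HF. On LF it had 4.53, 3.94 and 5.69 RPM in LF+CR, against 9.20, 8.06 and 6.77 RPM in LF. HF+CR 1 stood level with the lowest HF library and the other two HF+CR libraries below all of HF. The log2 fold changes were -0.41 on HF and -0.66 on LF (SE 0.22 each).

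miR-574-5p, a GU-repeat miRNA known to bind the RNA-binding protein CELF1 as a decoy, had the largest difference on LF. It had 18.2, 12.7 and 25.7 RPM in HF+CR, against 27.2, 30.5 and 21.7 RPM in HF. In LF+CR it had 4.91, 6.46 and 13.3 RPM, against 23.3, 21.96 and 33.8 RPM in LF. The LF+CR mean was thus 31.2% of the LF mean, with no overlap, whereas the HF+CR mean was 71.4% of the HF mean and HF+CR 3 lay inside the HF range. The log2 fold changes were -0.51 on HF and -1.65 on LF (SE 0.31 each).

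miR-674-5p had 79.3, 71.6 and 107 RPM in HF+CR, against 110, 113 and 103 RPM in HF. Its LF+CR levels were 44.1, 68.1 and 71.0 RPM, against 118, 80.9 and 106 RPM in LF. Again HF+CR 3 overlapped with its controls and no LF+CR library did, with log2 fold changes of -0.35 on HF and -0.74 on LF (SE 0.21 each).

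The remaining 3 members differed on LF and had means in HF+CR near or above those in HF. miR-671-5p, known to direct cleavage of the circular RNA Cdr1as, had 182, 136 and 133 RPM in HF+CR, against 118, 146 and 130 RPM in HF. In LF+CR it had 53.5, 57.0 and 62.6 RPM, against 97.2, 104 and 108 RPM in LF. The 3 LF+CR libraries lay close together at 56.0% of the LF mean, and the HF+CR mean was 115% of the HF mean, with overlap. For miR-1198-5p the levels were 37.0, 26.3 and 53.8 RPM in HF+CR, against 34.9, 35.2 and 39.3 RPM in HF. On LF they were 18.6, 22.1 and 21.8 RPM in LF+CR, against 46.4, 35.3 and 41.1 RPM in LF. The HF+CR libraries of miR-1198-5p spread on both sides of the HF range, while LF+CR had 50.9% of the LF mean. miR-328-3p, which has been described to act both by seed pairing and as a decoy for the protein hnRNP E2, had 201, 80.5 and 142 RPM in HF+CR, against 120, 126 and 188 RPM in HF. Its LF+CR levels were 41.5, 73.4 and 85.2 RPM, against 188, 152 and 196 RPM in LF. Its LF+CR mean was 37.3% of the LF mean without overlap, and the HF+CR libraries were both above and below all of HF.

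The difference between the diets was fitted as the calorie restriction effect on HF minus that on LF. For miR-671-5p the log2 effect was 0.19 on HF and -0.83 on LF, a difference of 1.02 (SE 0.22, adjusted p = 0.0306 in limma), 1 of 3 miRNAs called among 351 (0.855%). The effect on LF is 1 of the 2 terms of that difference and chose the miRNA, so the p is no independent support. For miR-328-3p the effects were -0.10 on HF and -1.46 on LF (difference 1.36, SE 0.43, adjusted p = 0.191), and for miR-1198-5p 0.04 on HF and -0.94 on LF (difference 0.97, SE 0.31, adjusted p = 0.191). miR-574-5p followed with a difference of 1.14 (SE 0.44, adjusted p = 0.249). The other 6 had differences between -0.19 for miR-1981-5p and 0.48 for miR-423-3p, and the median of all tested miRNAs was 0.28. The miR-671-5p difference stayed between 0.87 and 1.10 when any 1 library was left out, with adjusted p between 0.0243 and 0.109. It was not called without LF 2, LF 3, LF+CR 1, LF+CR 2, LF+Ex 1, HF 1, HF 3, HF+CR 1 or HF+Ex 3. After rescaling the libraries by median-of-ratios size factors it was 0.74 (adjusted p = 0.219), and without LF+CR 1 and HF+CR 1, the libraries high in pancreatic markers, 0.82 (adjusted p = 0.285).

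The median of all tested miRNAs in LF+CR against LF was -0.32. After rescaling, which sets that median near 0 by construction (0.01), all 10 members were lower, with a median of -0.53 and 3 called. Of all 351 tested, 7 were called lower and 7 higher after rescaling. As the members were chosen for being lower with calorie restriction, these values are a description. Marker sums moved with the LF comparison. The neuronal sum (5 of 5 listed) was 92.8 to 107 RPM in LF+CR, against 144 to 217 RPM in LF, and the fragment-like sum was 32.9 to 40.6 RPM in LF+CR, against 20.6 to 24.99 RPM in LF, without overlap in either. Leukocyte and Kupffer cell markers (7 of 7 listed) summed to 2328 to 3103 RPM in LF+CR, against 2499 to 8178 RPM in LF, and hepatocyte markers (6 of 6 listed) to 359743 to 412248 RPM in LF+CR, against 299636 to 388891 RPM in LF. Between HF+CR and HF the fragment-like sum was 114 to 307 RPM against 28.3 to 115 RPM. The part of these cells and entries in the members' levels was not tested.

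The opposite arm of each hairpin was not used to choose the members, though it comes from the same libraries. Of 8 such arms (miR-423 has both among the members), miR-328-5p, miR-1198-3p and miR-505-5p never reached 5 RPM and were not tested. The 5 tested arms all had negative log2 fold changes on both diets, as did 56.7% of all tested miRNAs on HF and 75.2% on LF. Of these arms 0 of 5 passed the test on HF (0% of all miRNAs called in either direction) or on LF (6.27%). On LF miR-185-5p turned positive after rescaling. The median of the 5 arms was -0.16 in HF+CR against HF, where that of all tested was -0.05. In LF+CR against LF it was -0.62, where that of all tested was -0.32. At an unadjusted p under 0.05, 3 of 5 were lower on LF and 0 of 5 on HF. Among all 351 tested, 101 on LF and 53 on HF had such a p in either direction. With voom weights limma called 1 arm on LF.

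miR-574-3p had 122, 53.9 and 139 RPM in HF+CR, against 139, 59.0 and 129 RPM in HF. In LF+CR it had 40.0, 42.1 and 63.2 RPM, against 127, 90.9 and 128 RPM in LF. The LF groups did not overlap and the HF groups did; the log2 fold change was -0.07 on HF (SE 0.37, adjusted p = 0.963) and -1.25 on LF (SE 0.37, adjusted p = 0.0521). The sign on HF turned positive without HF+CR 2, HF 1 or HF 3, and that of miR-671-3p without HF+CR 2. miR-671-3p and miR-1981-3p also lay lower without overlap in LF+CR against LF, with log2 fold changes of -0.62 (SE 0.26, adjusted p = 0.131) and -0.63 (SE 0.24, adjusted p = 0.106). For miR-674-3p the value was -0.43 (SE 0.24, adjusted p = 0.275). In all, 3 of the 5 tested arms (miR-574-3p, miR-671-3p and miR-1981-3p) lay lower without overlap on LF, beside 24.8% of all tested.

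The clearest contrast between arms was at miR-185. miR-185-5p, the major arm, had 896, 1199 and 917 RPM in LF+CR, against 964, 1141 and 1336 RPM in LF, with a log2 fold change of -0.19 (SE 0.19, adjusted p = 0.516), and 0.14 after rescaling. miR-185-3p made up 0.363% ± 0.0789 of both arms in LF+CR and 0.752% ± 0.138 in LF (SD, n = 3), and the groups did not overlap. On HF its share was 0.565% ± 0.269 in HF+CR and 0.802% ± 0.162 in HF, with overlap. The 5p share of miR-574 was 13.9% ± 3.26 in LF+CR and 18.6% ± 2.76 in LF, that of miR-674 50.1% ± 3.61 in LF+CR and 55.6% ± 3.17 in LF, and both overlapped. At miR-423 the 3p share was 44.5% ± 2.50 in LF+CR and 42.4% ± 1.08 in LF. The opposite order was seen at miR-505, where the 3p share was 88.8% ± 3.48 in LF+CR and 84.3% ± 1.49 in LF. The ranges barely missed each other, with a lowest share of 85.7% in LF+CR and a highest of 85.3% in LF. The other arm, miR-505-5p, was at only 0.315 to 0.759 RPM in LF+CR and was not tested. Nothing is therefore read from that gap. The mean share of the member was also higher for miR-1981-5p, at 86.9% ± 1.78 in LF+CR and 84.4% ± 3.19 in LF. For miR-1198-5p it was 98.3% ± 1.63 in LF+CR and 97.4% ± 0.993 in LF. Its other arm, miR-1198-3p, was at 0 to 0.629 RPM in LF+CR and was likewise not tested. Since the named arms had been chosen for being lower, a smaller share of the chosen arm is a description.

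**Figure D3:**
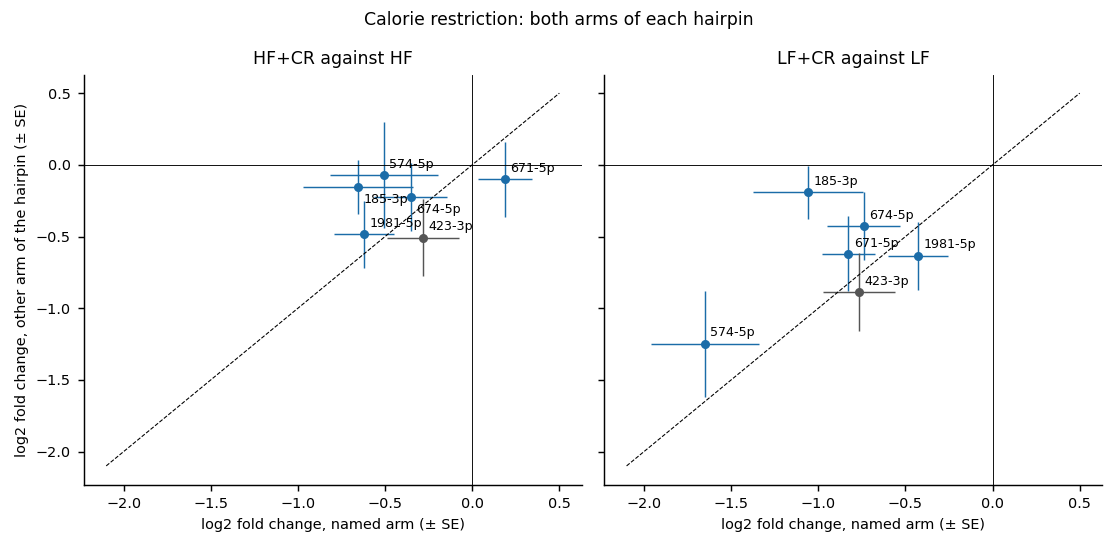
Log2 fold change with calorie restriction (± SE from limma) of the named arm (x axis) and of the other arm of the same hairpin (y axis), on HF (left) and LF (right); the grey point is miR-423, whose arms are both members, and the dashed line marks equal change. On LF every point lies below 0 on both axes, from miR-574 at -1.65 and -1.25 to miR-185 at -1.06 and -0.19.

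Exercise was the second regimen. In LF+Ex against LF 0 of 10 members passed the test (0% of all tested), and also 0 by limma with voom weights. At an unadjusted p under 0.05 there was 1 member, beside 41 of the 351 tested. All 10 had log2 fold changes below 0 with a median of -0.14, close to the -0.19 of all tested miRNAs, and only 4 of 10 remained below 0 after rescaling. This comparison shares the LF libraries with the one that chose the members. The libraries of miR-1198-5p, miR-328-3p, miR-185-3p and miR-574-5p did not overlap, 4 of 10 where 15.1% of all tested were lower in this way. miR-1198-5p had 26.6, 21.1 and 30.2 RPM in LF+Ex, against 46.4, 35.3 and 41.1 RPM in LF, a log2 fold change of -0.64 (SE 0.22, adjusted p = 0.237 in limma). miR-328-3p had 126, 119 and 121 RPM in LF+Ex, against 188, 152 and 196 RPM in LF (log2 fold change -0.54, SE 0.31, adjusted p = 0.484). miR-185-3p had 5.03, 5.74 and 6.25 RPM in LF+Ex, with the LF levels given above (log2 fold change -0.52, SE 0.32, adjusted p = 0.496).

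In HF+Ex against HF 0 of 10 members passed (0.855% of all tested), and also 0 with voom weights. There was 1 member at an unadjusted p under 0.05, beside 30 of the 351 tested. Of the 10 members, 6 had log2 fold changes above 0. miR-1198-5p had 57.3, 46.1 and 51.3 RPM in HF+Ex, against 34.9, 35.2 and 39.3 RPM in HF (log2 fold change 0.48, SE 0.22, adjusted p = 0.545). miR-1981-5p had 80.1, 70.4 and 77.6 RPM in HF+Ex, against 49.98, 68.3 and 69.2 RPM in HF (log2 fold change 0.29, SE 0.17, adjusted p = 0.666). These 2 members had no overlap, as did 9.69% of all tested miRNAs in that direction. miR-328-3p, at 247, 187 and 206 RPM in HF+Ex and 120, 126 and 188 RPM in HF, overlapped slightly (log2 fold change 0.58, SE 0.31, adjusted p = 0.600).

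The exercise effect on HF minus that on LF passed for 0 of 10 members (0.855% of all tested, 0 with voom weights). It passed for 2 members at an unadjusted p under 0.05, beside 58 of the 351 tested. It was 1.13 for miR-1198-5p (SE 0.31, adjusted p = 0.101), 1.11 for miR-328-3p (SE 0.43, adjusted p = 0.216) and 0.46 for miR-1981-5p (SE 0.24, adjusted p = 0.379). miR-1198-5p was called for this difference without HF+CR 3, and also after rescaling. The exercise average over both diets passed for 0 members (0% of all tested), and for 0 with voom weights. It passed for 0 members at an unadjusted p under 0.05, beside 12 of the 351 tested. The members' log2 fold changes lay between -0.31 for miR-185-3p and 0.06 for miR-1981-5p.

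The third question was the diet. Without a regimen, 0 of 10 members passed in HF against LF (0.285% of all tested, 0 with voom weights). There were 2 members at an unadjusted p under 0.05, beside 41 of the 351 tested. miR-671-5p, miR-423-3p and miR-423-5p lay higher in HF without overlap, 3 of 10 where 10.5% of all tested did. Their log2 fold changes were 0.34 (SE 0.15, adjusted p = 0.376), 0.45 (SE 0.20, adjusted p = 0.393) and 0.47 (SE 0.27, adjusted p = 0.518). The last 2 are arms of a single hairpin. HF and LF are also the controls of the restriction comparisons that chose the members, so the count is a description.

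With exercise on both diets, HF+Ex against LF+Ex, none of the 6 libraries was part of the fold changes that chose the members. Earlier results of these data were known at that choice, and the fit estimates the spread over all groups together. The counts of members are therefore a description. In HF+Ex against LF+Ex miR-1198-5p and miR-1981-5p were higher, 2 of 10 where 5.98% of all tested miRNAs were called higher. miR-1198-5p had 57.3, 46.1 and 51.3 RPM in HF+Ex, against 26.6, 21.1 and 30.2 RPM in LF+Ex, a log2 fold change of 0.97 (SE 0.22, adjusted p = 0.0200 in limma). miR-1981-5p had 80.1, 70.4 and 77.6 RPM in HF+Ex, against 46.3, 52.9 and 43.9 RPM in LF+Ex, a log2 fold change of 0.66 (SE 0.17, adjusted p = 0.0331). In both, every HF+Ex library was above every LF+Ex library. The same held for 8 of 10 members, all but miR-674-5p and miR-423-5p, beside 32.5% of all tested. The 10 log2 fold changes ran from 0.21 to 0.97 with a median of 0.51, where the median of all tested was 0.22, and 1 of 10 was below 0 after rescaling. miR-328-3p at 0.79 (SE 0.31, adjusted p = 0.0984), miR-574-5p at 0.72 (SE 0.31, adjusted p = 0.137) and miR-185-3p at 0.72 (SE 0.32, adjusted p = 0.143) came next.

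**Figure D4:**
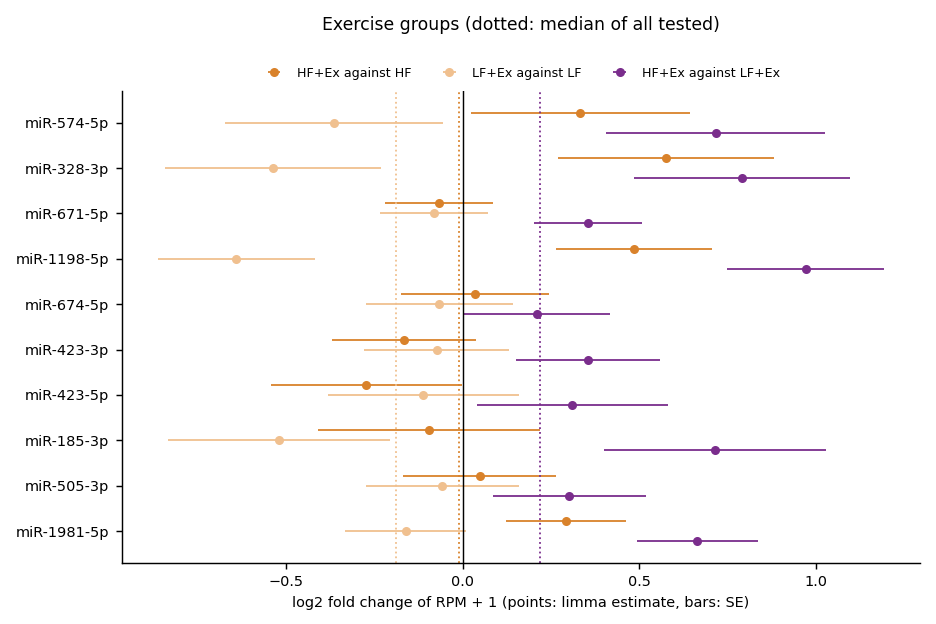
Log2 fold change of RPM + 1 for each of the 10 miRNAs (points, bars are SE from limma) in HF+Ex against HF, LF+Ex against LF and HF+Ex against LF+Ex; dotted lines mark the median of all 351 tested miRNAs in each comparison. The HF+Ex against LF+Ex points all lie right of 0, with miR-1198-5p at 0.97 farthest.

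The miR-1198-5p call was lost without LF+Ex 1 (adjusted p = 0.0628), LF+Ex 2 (0.0936), HF+Ex 1 (0.0799) or HF+Ex 3 (0.0632), with differences of 0.84 to 1.08 over all omissions. That of miR-1981-5p was lost without any 1 of the 6 libraries compared (adjusted p 0.0529 to 0.103, differences 0.61 to 0.74). miR-1981-5p was also not called after rescaling (0.44, adjusted p = 0.136). Several marker sums moved with this comparison. Leukocyte markers summed to 5557 to 7820 RPM in HF+Ex and 3164 to 4327 RPM in LF+Ex, endothelial markers (2 of 2 listed) to 19096 to 20813 RPM in HF+Ex and 15894 to 17683 RPM in LF+Ex, and neuronal markers to 140 to 148 RPM in HF+Ex and 93.1 to 114 RPM in LF+Ex. Their part in the result was not tested. Fold changes in HF+Ex against LF+Ex also moved with GC content across miRNAs (r = 0.29 over 288 miRNAs that share the same 6 libraries, 0.28 without the members). With a linear GC trend removed in each library, miR-1198-5p was at 0.84 (adjusted p = 0.0260) and miR-1981-5p at 0.47 (adjusted p = 0.0626).

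Restricted and exercised livers were set side by side within each diet, as a description. The restricted libraries are among those by which the members were chosen, so lower members in them are partly built in. In LF+CR against LF+Ex 8 of 10 members lay lower without overlap, all but miR-1198-5p and miR-1981-5p, beside 19.9% of all tested. In HF+CR against HF+Ex 2 members lay lower, miR-574-5p and miR-1981-5p (10.8% of all tested), and miR-671-5p lay higher (8.26%). miR-1981-5p was at 35.9 to 42.7 RPM in HF+CR, against 70.4 to 80.1 RPM in HF+Ex. In the order of its group means, LF+CR and HF+CR overlapped as the lowest, then came LF+Ex, LF and HF, each overlapping with the next, and HF+Ex stood apart at the top. LF+CR reached 44.3 RPM, just inside the LF+Ex range, which began at 43.9 RPM. For miR-671-5p the order was LF+CR, then LF+Ex and LF, which overlapped, then HF+Ex, HF and HF+CR, each overlapping with the next, with gaps between these 3 steps.

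Base composition was then set against the difference on restriction. Across the 288 miRNAs with a sequence, the share of G and the log2 fold change in LF+CR against LF had r = 0.01, and 0.08 without the members. Above the upper quartile of G share the 62 miRNAs that are no members had a median of -0.31, and up to the lower quartile the 77 that are no members had -0.43. For GC content r was -0.05. With a linear trend on the G share removed in each library, 9 of 9 members were lower on LF, with a median of -0.84. The members were chosen for being lower with calorie restriction, so that count is a description. The part of base composition in their levels was not tested.

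**Figure D5:**
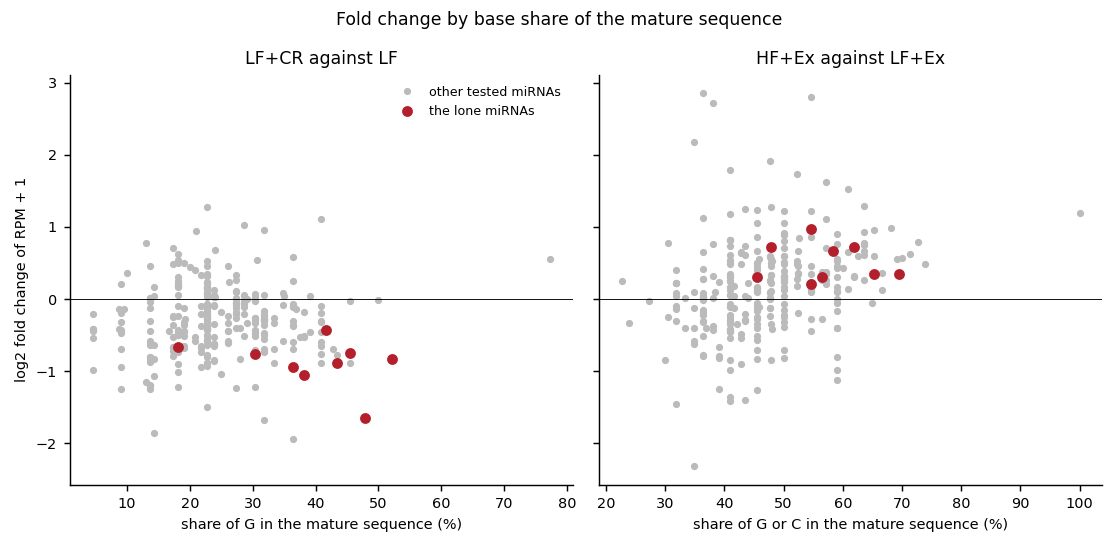
Log2 fold change of RPM + 1 (y axis) of 288 tested miRNAs with a sequence (points; 9 members in red) against the share of G in LF+CR against LF (left) and the share of G or C in HF+Ex against LF+Ex (right). On the left r is 0.01 and the members lie low at high G; on the right r is 0.29.

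Across the 18 libraries the members varied together. The Pearson r of a member's log2(RPM + 1) with the mean standardised level of the other 9 ran from 0.71 for miR-1981-5p to 0.94 for miR-574-5p. Among the 45 pairs the median r was 0.75, the highest 0.95 for the 2 arms of miR-423 and the lowest 0.39 for miR-671-5p with miR-1981-5p. These points share libraries and their scaling, and the low LF+CR libraries by which the members were chosen are among them. The mean standardised level was lowest in LF+CR 1 at -2.17, LF+CR 2 at -1.46 and LF+CR 3 at -1.09, followed by HF+CR 2 at -0.65, and highest in HF+Ex 1 at 1.23. Among the other tested miRNAs those most like this profile were let-7b-5p (r = 0.90), miR-34a-5p (0.89), miR-425-3p (0.88), miR-191-3p (0.87) and let-7d-5p (0.87). In LF+CR against LF their log2 fold changes ran from -1.93 for miR-34a-5p to -0.69 for let-7d-5p. On HF they ran from -1.07 for miR-34a-5p to 0.0007 for miR-425-3p. In HF+Ex against LF+Ex the range was 0.20 for miR-191-3p to 1.06 for miR-34a-5p. The pattern is thus not particular to the members.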

How the data were processed

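Small RNA was enriched from 10 µg of Trizol-extracted total RNA of each frozen liver sample for Illumina libraries, per the labels' protocols. Per the file headers, the authors deposited RPM, read numbers scaled to each library, for 758 mature miRNAs. The submitters' processing notes name the build mm10. The aligner, the annotation release and the treatment of multi-matching reads are not stated in the sources used. The deposited series table and the tables per library differed by at most 1.09e-11 RPM. RPM is a share of a library, so abundant miRNAs move the others. Each library's values were whole multiples of a single step (tolerance 0.001 reads), taken as 1 read; the lowest value above 0 stood for 2 reads, so that a listed 0 can stand for 1 read. Read numbers given are those multiples, and without molecular identifiers they are not independent molecules.

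Groups came from the sample titles. log2(RPM + 1) was fitted for the 351 miRNAs with at least 5 RPM in at least 3 of 18 libraries (407 were left out) in limma 3.58.1 (R 4.3.3), with 1 coefficient per group, all libraries, an intensity trend, two-sided tests and Benjamini-Hochberg adjustment over 351; the fit was tested on simulated data. All 10 members passed the filter. The pseudocount understates changes of low miRNAs. There were 10 comparisons: CR and Ex each against the same diet alone, each averaged over diets and as a difference between diets, and HF against LF with and without Ex. Calls are at an adjusted p under 0.05. The members and lists were chosen with earlier results of these data known. Named are all members, their opposite arms, the members called or else the 3 with the smallest p in exercise and diet comparisons, miRNAs sharing a seed, and the 5 most alike. Sequences are from RefSeq (GRCm38.p6) and hosts from GENCODE M21; a host annotation is not reported here. Alternatives were a pseudocount of 5, a filter of 50 RPM or none, median-of-ratios rescaling, fits on the compared groups alone, a replicate block, no intensity trend, a GC trend removed, and omission of single libraries or of pairs high in markers of other cells. Voom weights on the read multiples and removal of a G trend were added after seeing the data. Python 3.11.15 with pandas 2.3.3 and matplotlib 3.10.9 made the tables and figures.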

Additional observations from a re-analysis of the deposited data

Results flagged for a closer look

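The response of miR-671-5p to calorie restriction differed between the diets by 1.02 on the log2 scale (HF minus LF; SE 0.22, adjusted p = 0.0306 in limma), with effects of 0.19 on HF and -0.83 on LF. It was marked because the test of that difference passed its threshold. The effect on LF had chosen the miRNA, and the call was lost in 9 of 18 omissions of a single library.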

How the results depend on the processing

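Calls here rest on 3 libraries a group. The number of members called was 6 in LF+CR against LF, 8 in calorie restriction averaged over diets, 1 in its difference between diets and 2 in HF+Ex against LF+Ex. Median-of-ratios rescaling gave 3, 1, 0 and 1, and fits on the compared groups alone gave 0, 0, 0 and 4. Both gave 1, in place of 0, for the exercise difference. Of all 351 tested, in the same order, 22, 23, 3 and 29 were called in either direction in the main fit. Rescaling gave 14, 8, 1 and 34 of all tested, and the compared groups alone 0, 0, 1 and 59. For the exercise difference the numbers of all tested were 3, 8 and 12. Without LF+CR 1 and HF+CR 1 the first 3 member counts were 2, 0 and 0 (5, 0 and 1 of all tested). Without LF 2 and HF+CR 2 the average had 2 members, the restriction difference 3 and the exercise difference 1 (12, 17 and 6 of all tested). For the average, no filter gave 2 members (17 of all 758) and a filter of 50 RPM 5 (17 of all 200). With no filter, or a GC trend removed, HF+Ex against LF+Ex had 1 member (18 of all 758 and 31 of all 288). The restriction difference had 0 with a GC or a G share trend removed. The replicate block gave 4 members for the average and 0 for the restriction difference (22 and 2 of all tested). Replicate numbers were not taken to pair the libraries. Same-numbered deviations from the group means correlated between -0.42 and 0.61, over 0.1 in 14 of 45 pairs. Differently numbered ones correlated between -0.74 and 0.66, over 0.1 in 24 of 90. With 3 libraries a group this comparison cannot settle whether the numbers pair them. Opposite arms called were 1 in place of 0 in LF+CR against LF with a filter of 50 RPM, the replicate block, a GC or G share trend removed, voom weights, or without LF 2 and HF+CR 2. They were likewise 1 in the average with the replicate block, no intensity trend, a GC or G share trend removed, or without LF 1 and HF+CR 3. Without single libraries the counts ran from 2 to 8 in LF+CR against LF, 0 to 9 in the average, 0 to 3 and 0 to 1 in the restriction and exercise differences, 0 to 2 in HF+Ex against LF+Ex, and 0 to 1 and 0 to 2 for opposite arms on LF and in the average. The counts stayed 0 under every alternative run in HF+CR against HF, in HF against LF, in each exercise comparison with its control and in the exercise average. Among opposite arms, signs changed for 3: miR-185-5p was at 0.14 in LF+CR against LF and 0.021 in the average after rescaling, and in HF+CR against HF miR-574-3p was at 0.35 and miR-671-3p at 0.10 without LF 2 and HF+CR 2. Without single libraries miR-574-3p ran from -0.46 to 0.35 and miR-671-3p from -0.31 to 0.10. Among members signs changed in HF+CR against HF for miR-1198-5p (0.04, range -0.22 to 0.29) and miR-328-3p (-0.10, range -0.40 to 0.25). The causes were not tested. The planned edgeR test was not run, because the smallest listed value stands for 2 reads and whole counts were not recovered in full. At 17 to 112 reads, miR-185-3p is the member most limited by depth.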
